A study of Homo sapiens with 35 samples.

Results

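The sterol and fatty acid synthesis genes described here are a list of 33 human genes, chosen by symbol from what each is known to do. They cover the enzymes that turn acetyl-CoA into cholesterol, the proteins that control the SREBP transcription factors, and enzymes that make and modify fatty acids. Each gene was read from its brightest probe set among those annotated to that gene alone. Of the 33 genes, 31 were measured, among 11882 genes in all; FDFT1 and ACSS2 were not analysed here. The 31 genes had 60 probe sets: 20 genes had more than 1, and 11 had a single probe set.

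The study profiled BE(2)-C, a clonal line of human neuroblastoma cells that carries extra copies of MYCN. The cells received DMSO as the vehicle, all-trans retinoic acid (ATRA) at 5 µM, valproic acid (VPA, a histone deacetylase inhibitor) at 1 mM, or ATRA at 5 µM with VPA at 1 mM. They were collected after 6, 24 or 72 h, and total RNA was measured on 35 Affymetrix arrays, 3 for each of 11 groups and 2 for DMSO at 72 h. All groups come from this single line grown in medium with fetal bovine serum, so lipids in the serum were open to cells of every group. The labels call the replicates triplicates without saying that they were separate cultures, so the p-values measure only the spread between these samples, which may be technical.

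Cholesterol and unsaturated fatty acids are made when membranes run short of sterol. The membrane protein SCAP then escorts SREBP from the endoplasmic reticulum to the Golgi, where proteases such as MBTPS1 (site-1 protease) release its transcription factor part, and this part turns on the synthesis genes together with NF-Y and Sp1. INSIG1 and INSIG2 hold SCAP back when sterol is plentiful, and INSIG1 is itself an SREBP target, so its RNA is often read as a measure of SREBP activity. Proliferating cells and cells extending neurites both draw on this supply of membrane lipid.

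Because SREBP, NF-Y and Sp1 bind near the start sites of many of these genes, the promoter windows were searched for their short motifs. RefSeq windows on build GRCh38.p14, from 250 bases before to 50 bases after a start site, were at hand for 28 of the 31 genes (40 windows). The core of the sterol regulatory element, CACNCCAC on either strand, lay in a window of 6 of the 28 genes (INSIG1, SREBF2, SCD, IDI1, SC5D and ACACA), which is 21.4%, against 8.38% of all 9591 genes on the arrays that had a window. The NF-Y motif CCAAT lay in 19 of 28 (67.9%, against 44.4%) and the GC box GGGCGG in 26 of 28 (92.9%, against 69.7%). Counted by window, the shares for CACNCCAC were 17.5% and 6.28%. These shares describe letters in a window and carry no test.

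The stretches below are examples from genes named in the results that follow. CACNCCAC and CCAAT both lie within the first pair, while MSMO1 holds several copies of CCAAT. A stretch of IDI1 that also holds both motifs is not shown. Capitals mark CACNCCAC (in SREBF2 with the T before it, which makes the longer form TCACNCCAC) and CCAAT, each also as its reverse complement.
INSIG1, chr7:155297630-155297717, plus strand, motifs 208 and 170 bases before the start: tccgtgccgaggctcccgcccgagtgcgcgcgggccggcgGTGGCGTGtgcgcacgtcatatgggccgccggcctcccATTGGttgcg
SREBF2, chr22:41832933-41833020, plus strand, motifs 132 and 106 bases before the start: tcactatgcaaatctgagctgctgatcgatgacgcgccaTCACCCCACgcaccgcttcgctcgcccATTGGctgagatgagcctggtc
SCD, chr10:100347079-100347166, plus strand, motif 114 bases before the start: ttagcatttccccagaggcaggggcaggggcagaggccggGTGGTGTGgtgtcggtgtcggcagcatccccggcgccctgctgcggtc
MSMO1, chr4:165327474-165327649, plus strand, motifs 185, 139, 76 and 34 bases before the start: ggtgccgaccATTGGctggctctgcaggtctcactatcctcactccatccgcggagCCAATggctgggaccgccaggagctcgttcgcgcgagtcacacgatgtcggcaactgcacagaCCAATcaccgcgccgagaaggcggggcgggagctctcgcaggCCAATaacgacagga

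The deposited values are intensities on a linear scale, here compared as log2 of the intensity plus 1, so a fold is a ratio of intensity plus 1. All 31 genes lay above the lower quartile of every array (20.8 to 23.6) on every array, but MVD, TM7SF2 and SC5D were dim, with every group mean below 100. Changes were tested with limma over all 11882 genes, and a change counts as called at a Benjamini-Hochberg adjusted p under 0.05. DMSO at 24 h replicate 1 stood apart, with a median intensity of 43.6 against 53.1 to 58.9 on the other 34 arrays, and 6 of the 31 genes lay over 0.5 log2 below their level on the other arrays of its group. Counts of the 31 genes called in comparisons that use it are therefore also given without it. The log2 ratio of 3' to 5' control probe sets, a measure of RNA integrity, averaged between 0.20 and 0.44 in the groups at 6 h and between 0.89 and 1.82 later. Of the defining neuroblast markers, PHOX2A, HAND1, GATA3, ISL1, DBH and CHGA stood at group means of 587 or more, TH at 97.8 to 261.5, and HAND2 was dim at 25.3 to 40.9. Glial, haematopoietic, hepatocyte and adipocyte markers stayed at 47.3 or below, with S100B, GFAP, PTPRC, ALB and ADIPOQ near the lower quartile of the arrays.

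Marker lists moved in the same comparisons as the genes described here, and their part in those changes was not tested. The mesenchymal markers FN1, LUM and TWIST1 were expressed, with group means from 146.2 to 3940. Of 6 mesenchymal markers, 3 were called higher with ATRA at 24 h (and 1 lower), 4 with VPA at 24 h and 5 with both at 24 h, against 12.6%, 9.74% and 13.5% of all genes. At 72 h these counts were 3 with ATRA (and 1 lower), 5 with VPA and 5 with both, against 10.7%, 4.54% and 15% of all genes. Their median change ran from 0.44 with ATRA at 24 h to 1.19 with both at 72 h. Of 8 neuroblast markers, 4 were called lower with ATRA at 72 h (median -0.34, against 20.3% of all genes) and 5 with both (median -0.53, against 16.7%), with 1 higher in each. Of 5 epithelial markers, 2 were called higher with ATRA and 2 with VPA at 24 h, and 3 with both at 24 h and at 72 h. With ATRA at 24 h, 3 neuroblast markers were called higher and 2 lower against DMSO (12.6% and 6.08% of all genes). The counts were 1 and 1 with VPA (9.74% and 2.5%) and 2 and 2 with both (13.5% and 7.84%). In DMSO from 6 to 24 h, 5 neuroblast markers were called lower, against 10.1% of all genes. Between ATRA and ATRA with VPA at 24 h, 2 mesenchymal markers were higher, against 4.88% of all genes. There 1 epithelial and 2 neuroblast markers were lower, against 4.62%. Among the epithelial markers KRT19 had group means from 46.5 to 456, the highest with ATRA at 24 h, and KRT18 from 29.9 to 114.7. At 24 h without DMSO replicate 1, the counts called higher with ATRA, VPA and both were 3, 3 and 5 for mesenchymal markers. They were 1, 0 and 3 for the epithelial and 2, 0 and 2 for the neuroblast markers. Neuroblast markers called lower were then 2, 1 and 2.

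Most of these genes were at their highest in ATRA at 24 h: this group had the highest mean of the 12 groups for 22 of 31 genes. The spread between groups was moderate, since the ratio of the highest to the lowest group mean ran from 1.20 for MBTPS1 to 3.22 for INSIG1, with a median of 1.84. The lowest group mean was at 6 h for 13 genes, in ATRA at 72 h for 7 and in ATRA with VPA at 72 h for 6. Cells in bulk culture were measured, so less RNA per cell and fewer cells of a kind cannot be told apart.

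**Figure D1:**
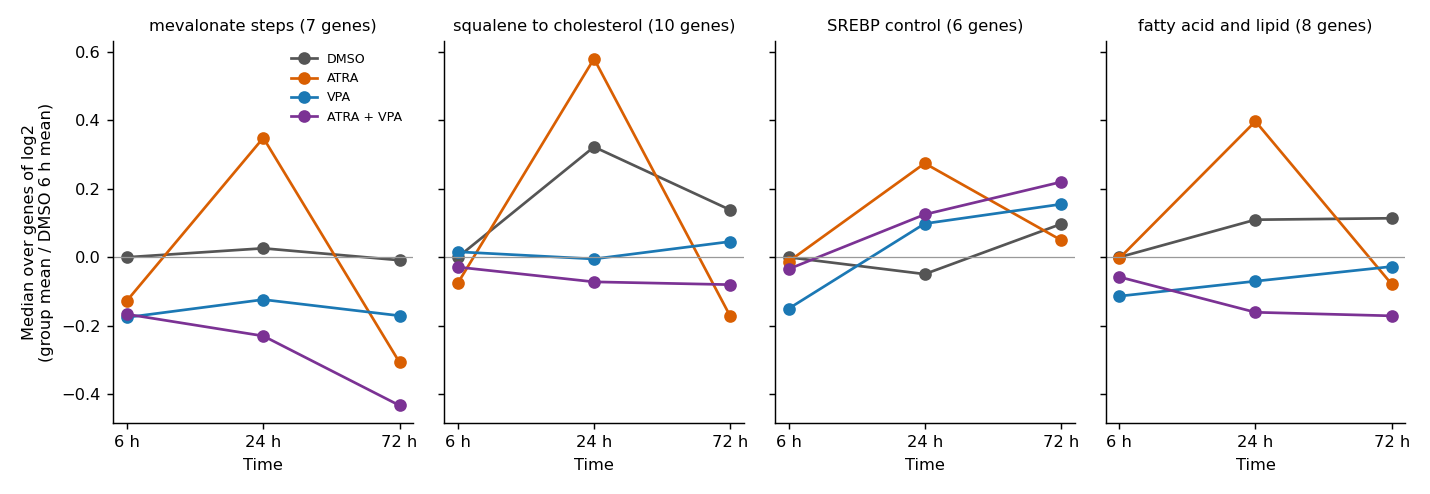
Median over the genes of each role of the log2 ratio of a group mean to the DMSO 6 h mean (y axis, log2 units) at 6, 24 and 72 h (x axis), with a line per treatment and no error bars. In ATRA at 24 h the median was 0.35 for the mevalonate steps (7 genes) and 0.58 from squalene to cholesterol (10 genes). It was 0.28 for the 6 control genes and 0.40 for the 8 fatty acid and lipid genes. In the same order, the medians in DMSO at 24 h were 0.03, 0.32, -0.05 and 0.11. With VPA added to ATRA at 24 h they were -0.23, -0.07, 0.13 and -0.16.

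Time in culture with DMSO alone moved many of the genes. Between 6 and 24 h, 11 of 31 genes were called higher (35.5%, against 5.23% of all genes) and 1 lower (3.2%, against 10.1%). INSIG1 rose by 1.10 on the log2 scale, HMGCS1 by 0.94, MSMO1 by 0.85, ELOVL6 by 0.64 and LSS by 0.57. DHCR7 fell by 0.80. At 72 h against 6 h, 8 genes were higher (25.8%, against 5.09%) and 0 lower (5.52% of all genes). Without DMSO at 24 h replicate 1 the rise to 24 h held 10 genes (background 3.21%) and DHCR7 and EBP were no longer called. These rises moved with the 3' to 5' ratio, which went from 0.27 to 1.05 and 1.06; with that ratio as a covariate, 5 genes were called higher between 6 and 24 h, against 0.606% of all genes, and 3 between 6 and 72 h, against 2.07%. With the probe sets of each gene averaged, 6 genes were higher and 4 lower at 24 h, and 5 higher and 2 lower at 72 h. That fit called 2133 of all 11882 genes at 24 h and 1394 at 72 h, in either direction. Of the 20 genes with several, 16 had probe sets of both signs between 6 and 24 h, such as HMGCS1, whose second probe set fell by 0.47 where the brightest rose. At 72 h, 3 genes were called without DMSO at 72 h replicate 1 and 4 without replicate 2.

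ATRA alone changed none of the 31 genes at 6 h, when 1.62% of all genes were called (1.04% higher, 0.589% lower). At 24 h ATRA raised 12 of 31 genes (38.7%, against 12.6% of all genes) and lowered 0 (6.08% of all genes). The median change of the 31 genes was 0.29 log2, against 0.04 for all genes, and 25 of 31 were above 0. At 72 h the direction was the other way: 0 were higher (10.7% of all genes) and 9 were lower (29.0%, against 20.3% of all genes). The share at 72 h lies close to the background, and its median of -0.19 moved to -0.05 after a second quantile normalization.

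The comparison at 24 h depends on DMSO replicate 1. Without it ATRA raised 7 genes (background 7.15%) and lowered 1, PMVK (background 6.8%). HMGCS1, MVD, SQLE, MSMO1, DHCR7, SREBF1 and SCD were the 7. The median change of the 31 genes was then 0.16 log2, against -0.01 for all genes, and after a second quantile normalization of all arrays it was 0.17. Without DMSO replicate 3, a fit that keeps replicate 1, 17 genes were higher. Calls among all genes in that fit were not set beside this count. A fit of the arrays of this comparison alone called 3 of the 31 genes and 717 of all 11882 genes, in either direction.

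VPA alone moved the genes the other way at 24 h. At 6 h it lowered 4 of 31 genes (12.9%, against 4.71%), namely IDI1, ACAT2, INSIG1 and SREBF1, and raised INSIG2 (3.2%, against 6.51%). At 24 h it lowered 9 (29.0%, against 2.5% of all genes) and raised 1, SCAP (3.2%, against 9.74%). By 72 h VPA lowered 5 (16.1%, against 2.14%) and raised 1, INSIG2 (3.2%, against 4.54%), when 6.67% of all genes were called in either direction. IDI1, ACAT2, HMGCS1, SQLE and SCD were the 5 at 72 h. Without DMSO at 24 h replicate 1, VPA lowered 11 genes at 24 h (background 5.15%) and raised 0. The 5 calls at 6 h became 3 without DMSO replicate 1, 1 (INSIG2) without DMSO replicate 2, and 2 without VPA replicate 1 or 2. At 72 h, without either DMSO array, 3 genes were lower and 0 higher. The mean 3' to 5' ratio with VPA at 24 h was 1.60, against 1.05 in DMSO, and its part was not tested beyond the fit with that ratio as a covariate.

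The combination lowered genes at every time. At 6 h it lowered 3 (9.7%, against 4.9%) and raised 1 (3.2%, against 6.78%). At 24 h it lowered 11 (35.5%, against 7.84%) and raised INSIG2 and SREBF1 (6.5%, against 13.5%). Without DMSO at 24 h replicate 1 it lowered 12 (background 9.7%) and raised 1, SREBF1 (background 8.67%). By 72 h the combination lowered 14 (45.2%, against 16.7%) and raised the same pair (6.5%, against 15%), when 31.7% of all genes were called in either direction. The 3 treatments at a time share the DMSO arrays, so their counts are not independent. Without DMSO at 72 h replicate 1, the combination changed 10 genes at 72 h.

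**Figure D2:**
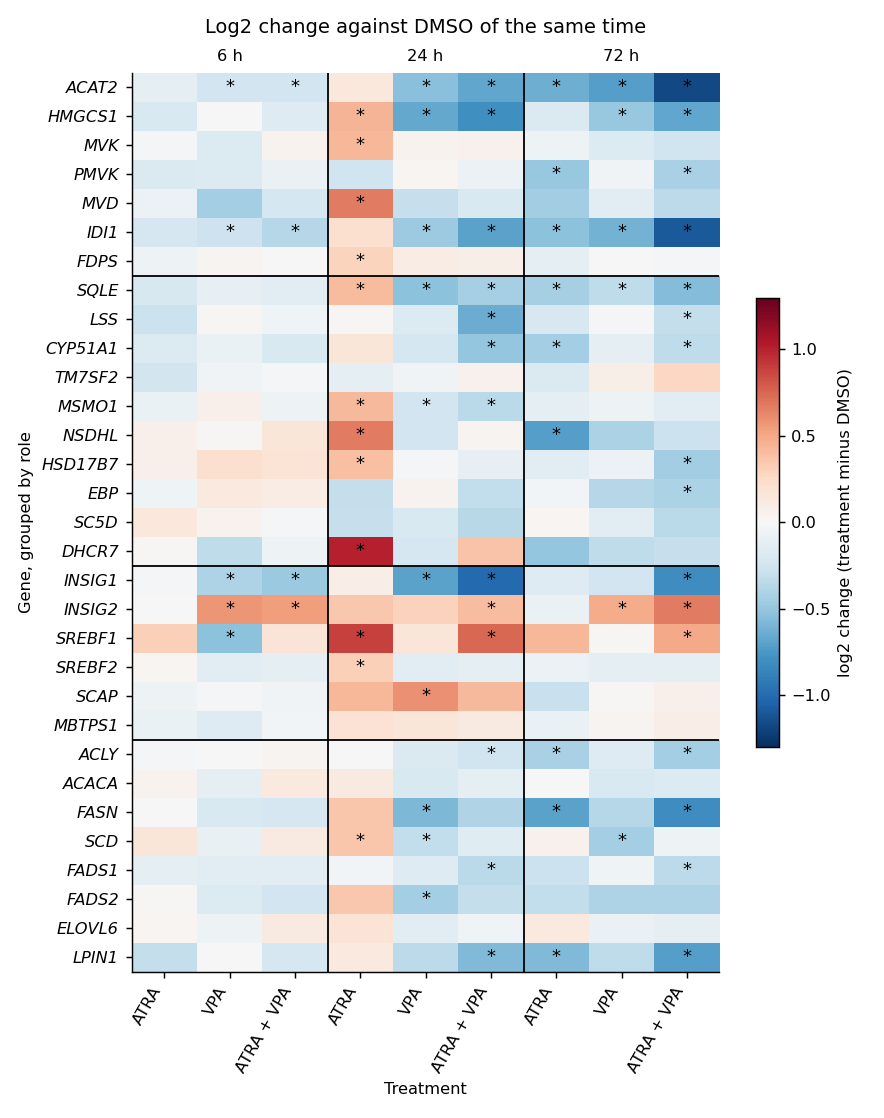
Log2 change of each of the 31 genes (rows, grouped by role) in each treatment against DMSO of the same time (columns), coloured from blue (lower) through white to red (higher), with an asterisk where the adjusted p is under 0.05. The ATRA column at 24 h is mostly red (12 genes called higher), while VPA and the combination are mostly blue at 24 h and 72 h, with INSIG2 and SREBF1 as red rows in the combination.

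Adding VPA to ATRA at 24 h lowered genes of every role. Of the 31 genes, 19 were lower with both agents than with ATRA alone (61.3%, against 4.62% of all genes) and 0 were higher (4.88% of all genes), when 9.5% of all genes were called in either direction. The median change was -0.50 log2, against -0.01 over all genes, and 28 of 31 were below 0. For 22 of 31 genes all 3 arrays with both agents lay below all 3 arrays with ATRA, a count that was not taken over all genes. This comparison does not use the DMSO arrays. Of the 60 probe sets, 55 were lower, and of the 20 genes with several, 18 had every probe set lower. The mean 3' to 5' ratio was 0.89 with ATRA and 0.97 with both. Between 14 and 18 genes were called when any single array of either group was left out. ACLY and MVK lost their calls whichever array it was, and NSDHL lost its call when any ATRA array was left out or without replicate 1 of the combination.

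**Figure D3:**
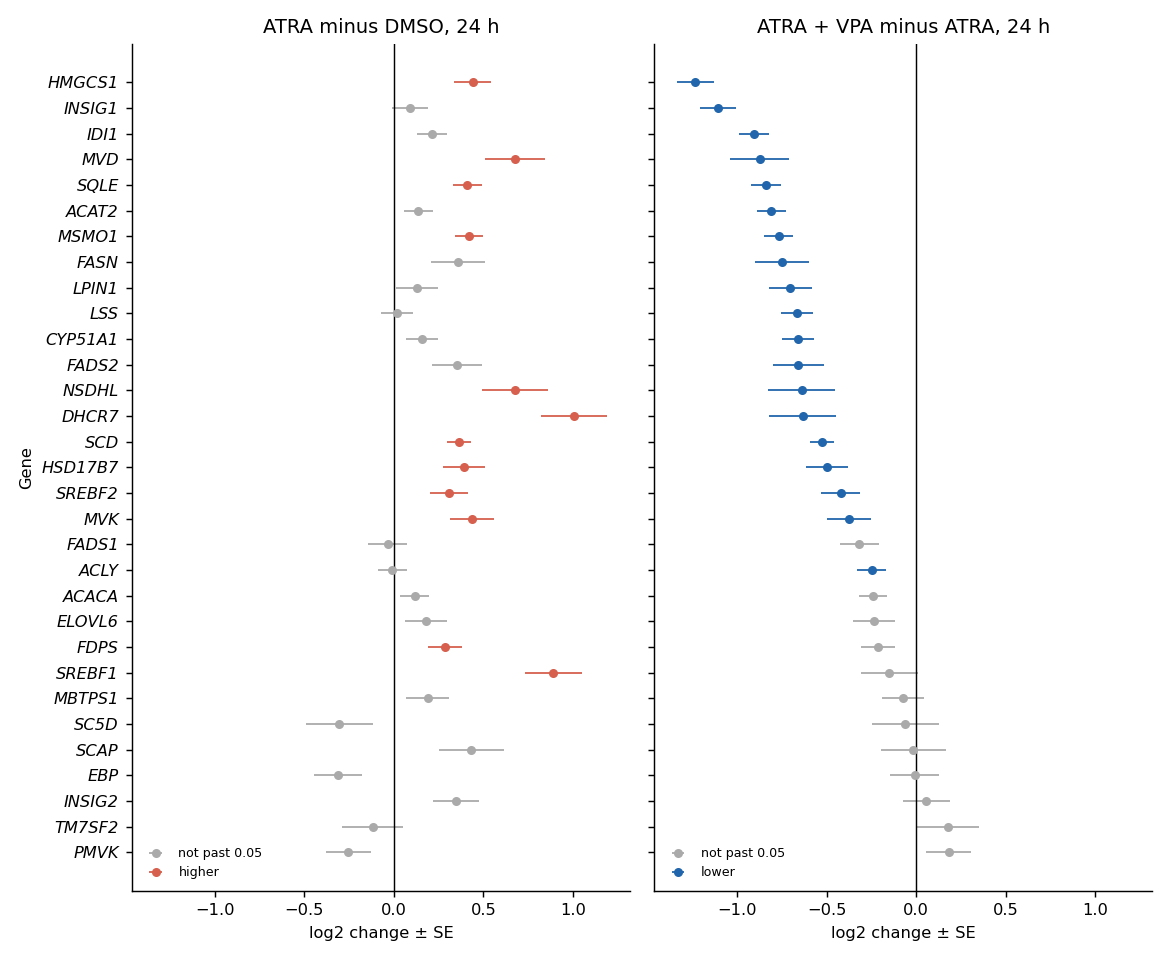
Log2 change ± standard error (x axis) of each gene (y axis, ordered by the right panel) for ATRA minus DMSO at 24 h (left) and for ATRA with VPA minus ATRA at 24 h (right), grey where the adjusted p is not under 0.05. The 2 panels share the ATRA arrays. On the right 19 genes are lower, from HMGCS1 at -1.23 to ACLY at -0.25, and on the left 12 are higher, with DHCR7 at 1.01.

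At 6 h the addition of VPA to ATRA lowered INSIG1 (3.2% of the genes, against 4.87%) and raised INSIG2 (3.2%, against 7.17%). At 72 h it lowered 5 genes (16.1%, against 6.18%), namely HMGCS1, IDI1, EBP, ACAT2 and INSIG1, and raised INSIG2 (3.2%, against 14.6%). After a second quantile normalization 12 genes were called at 72 h. Seen from VPA, adding ATRA changed SREBF1 alone at 6 h, where it rose (3.2%, against 0.454%; 0.118% of all genes were lower). At 24 h it raised 2 genes, DHCR7 and SREBF1 (6.5%, against 5.15%), and lowered 3, LSS, CYP51A1 and INSIG1 (9.7%, against 6.77%). At 72 h it raised SREBF1 and SCD (6.5%, against 12.4%) and lowered 11 (35.5%, against 13.5%). These calls depended on single arrays. SREBF1 at 6 h was called when VPA replicate 3 was left out but not when any of the other 5 arrays was. The 5 calls at 24 h became 2 without replicate 2 or 3 of the combination and 3 without VPA replicate 1 or 2. The 13 calls at 72 h became 6 and 8 without replicates 1 and 3 of the combination, and 7 and 8 without VPA replicates 1 and 3.

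The enzymes from acetyl-CoA to farnesyl pyrophosphate included the genes that fell furthest. ACAT2 condenses acetyl-CoA to acetoacetyl-CoA, the first step of the mevalonate route. Its intensity was 1203, 1291 and 1367 in DMSO at 24 h, 1359, 1460 and 1423 with ATRA, 874, 916 and 856 with VPA, and 729, 876 and 823 with both. The arrays with VPA lay below every array without it. Its 72 h values were 1052 and 1026 in DMSO, 735, 587 and 694 with ATRA, 631, 672 and 593 with VPA, and 478, 455 and 445 with both. All 3 treatments lay below DMSO, and the combination lay below each single agent. Against DMSO at 72 h, ACAT2 changed by -0.63 ± 0.09 (SE) with ATRA, -0.72 ± 0.09 with VPA and -1.18 ± 0.09 with both, a 2.26-fold fall (limma adjusted p = 1.4e-11). ACAT2 was already called lower with VPA at 6 h (-0.25), a call that was lost when any 1 of the 6 arrays was left out.

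HMGCS1 makes HMG-CoA, the substrate of the enzyme that sets the rate of the pathway. It read 531, 657 and 534 in DMSO at 6 h and 1113, 1048 and 1121 in DMSO at 24 h. With ATRA at 24 h it read 1412, 1616 and 1435, with VPA 678, 791 and 614, and with both 656, 603 and 634. ATRA arrays were all above and VPA arrays all below DMSO, and the combination was near VPA alone. ATRA raised HMGCS1 by 0.44 ± 0.10, VPA lowered it by 0.66 ± 0.10, and VPA added to ATRA changed it by -1.23 ± 0.10, a 2.35-fold fall (limma adjusted p = 1.3e-09). The second HMGCS1 probe set gave -1.78 for this last difference. At 72 h HMGCS1 was lower with VPA (-0.49) and with both (-0.68), while its change with ATRA alone was -0.19 and not called. The call with VPA at 72 h was lost without either DMSO array. For ATRA at 72 h the 2 probe sets were far apart, with -1.94 in the second.

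IDI1, which isomerises isopentenyl pyrophosphate, followed the same order. It read 1887, 2019 and 2191 in DMSO at 24 h, 2239, 2469 and 2342 with ATRA, 1506, 1580 and 1301 with VPA, and 1337, 1192 and 1235 with both. Its 72 h values were 1952 and 2023 in DMSO, 1399, 1333 and 1399 with ATRA, 1239, 1274 and 1388 with VPA, and 963, 882 and 953 with both. The combination at 72 h was the lowest group for IDI1, with a change of -1.09 ± 0.09 against DMSO, a 2.13-fold fall (limma adjusted p = 1.4e-10). It was lower than with ATRA alone by 0.56 and lower than with VPA alone by 0.48, both called. The second IDI1 probe set gave -1.07 against DMSO. Both are of the kind that can share sequence with near copies of the gene, so the IDI1 values may include signal from a copy.

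The remaining mevalonate enzymes are MVD, MVK, FDPS and PMVK. MVD, the decarboxylase that makes isopentenyl pyrophosphate, read 37.9, 56.6 and 45.6 in DMSO at 24 h, 89.2, 56.4 and 81.6 with ATRA and 38.3, 35.8 and 47.0 with both. Its ATRA and DMSO arrays overlapped although the rise of 0.68 ± 0.17 was called, and its fall with added VPA was -0.87 ± 0.17. MVK, mevalonate kinase, rose by 0.44 with ATRA and fell by 0.38 with VPA added, both called, and all 3 of its probe sets were higher with ATRA and lower with VPA added. FDPS, which makes farnesyl pyrophosphate, rose by 0.29 with ATRA at 24 h and was called in no other treatment comparison with DMSO. PMVK, phosphomevalonate kinase, was not raised at 24 h (-0.25, not called) and was lower at 72 h with ATRA (-0.50) and with both (-0.42). The MVK and FDPS calls with ATRA at 24 h were lost without DMSO replicate 1 or ATRA replicate 1, and that of FDPS also without DMSO replicate 2 or ATRA replicate 2 or 3. The MVK call with VPA added was lost when any 1 of its 6 arrays was left out. For PMVK the call with ATRA was lost without DMSO at 72 h replicate 2, and that with both without either DMSO array or replicate 1 of the combination.

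From squalene to cholesterol, 5 of 10 genes rose with ATRA at 24 h (12.6% of all genes) and 7 of 10 fell when VPA was added (4.62% of all genes). Without DMSO replicate 1, SQLE, MSMO1 and DHCR7 were the 3 of 10 called higher with ATRA. SQLE, squalene epoxidase, read 2208, 2438 and 2403 in DMSO at 24 h, 3280, 2861 and 3237 with ATRA, 1575, 1684 and 1624 with VPA and 1593, 1772 and 1883 with both. ATRA lay above and both VPA groups lay below DMSO, with no overlap. The rise with ATRA was 0.41 ± 0.08 (1.33-fold), the fall with VPA 0.53 ± 0.08, and the change from ATRA to both -0.84 ± 0.08 (limma adjusted p = 2.5e-08). At 72 h SQLE was lower in all 3 treatments, by 0.43 with ATRA, 0.33 with VPA and 0.56 with both; the call with VPA was lost without either DMSO array, VPA replicate 1 or VPA replicate 3, and with its probe sets averaged. Its 2 other probe sets changed by -1.06 from ATRA to both at 24 h.

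MSMO1, which oxidises methyl groups of the sterol ring, was the gene whose response to ATRA was called as different with VPA. It read 2200, 2189 and 2203 in DMSO at 24 h and 2853, 3049 and 2916 with ATRA. It read 1877, 1954 and 1709 with VPA and 1819, 1725 and 1635 with both. ATRA raised it by 0.42 ± 0.08 in cells without VPA, while in cells with VPA the 2 groups overlapped. VPA alone changed it by -0.25, a call lost when any DMSO array, VPA replicate 1 or VPA replicate 3 was left out. The interaction, which is the ATRA change with VPA minus the ATRA change without it, was -0.52 ± 0.11 (limma adjusted p = 0.017). MSMO1 was the 1 gene of 31 called in this comparison (3.2%, against 0.665% of all genes lower and 0.0757% higher). Over the 31 genes the interaction at 24 h had a median of -0.30, against -0.07 for all genes, and was below 0 for 28. Without DMSO replicate 1 these medians were -0.16 and -0.01, and MSMO1 stayed called at -0.52. At 6 h the interaction was called for 0 of the 31 genes and 0 of all genes, and at 72 h for 0 of 31 (1.3% of all genes higher and 0.614% lower). The count of genes called at 24 h ranged from 0 to 5 when 1 array was left out; it was 0, with MSMO1 lost, without VPA replicate 1, VPA replicate 2, ATRA replicate 2 or replicate 3 of the combination. It was 4 without DMSO replicate 3, 5 without VPA replicate 3 and 2 without replicate 1 of the combination. The count at 72 h was 1 without ATRA replicate 3.

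DHCR7, the reductase of the last step to cholesterol, had the largest rise of the 31 with ATRA at 24 h. It read 84.8, 143.8 and 168.5 in DMSO, 292, 200 and 289 with ATRA, 137, 90.5 and 103.9 with VPA and 141, 178 and 179 with both. The ATRA arrays lay above every DMSO array. The rise was 1.01 ± 0.19, or 2.01-fold (limma adjusted p = 0.00018), and 0.72 without DMSO replicate 1. The level with ATRA at 24 h, 260.4 ± 52.6 (SD, n = 3), lay near that in DMSO at 6 h, 222 ± 5.75 (SD, n = 3). DHCR7 was 106.5 with ATRA at 72 h against 151.6 in DMSO, a change of -0.50 that was not called. The fall of DHCR7 when VPA was added to ATRA at 24 h, 0.63, was not called without ATRA replicate 1 or 3 or replicate 1 of the combination. The second DHCR7 probe set was 0.75 higher with ATRA at 24 h but, unlike the brightest, was 0.32 higher in DMSO at 24 h than at 6 h.

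NSDHL and HSD17B7 act together in removing methyl groups from the ring. NSDHL read 122, 266 and 237 in DMSO at 24 h and 320, 310 and 319 with ATRA. By 72 h it read 225 and 230 in DMSO and 134, 137 and 142 with ATRA. ATRA therefore stood above DMSO at 24 h (0.68 ± 0.19) and below it at 72 h (-0.72 ± 0.21), without overlap at either time. The second NSDHL probe set gave 0.27 and 0.14 for these differences. HSD17B7 rose by 0.39 with ATRA at 24 h, fell by 0.50 when VPA was added, and was lower with both at 72 h by 0.45. The single HSD17B7 probe set is of the same kind as those of IDI1, so its values may include signal from a copy. The rises of NSDHL and HSD17B7 at 24 h were not called without DMSO replicate 1, nor was that of HSD17B7 without DMSO replicate 2 or ATRA replicate 2. The fall of HSD17B7 with both was not called without DMSO at 72 h replicate 1 or replicate 1 of the combination, and the fall of NSDHL at 72 h was not called without DMSO replicate 2.

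LSS, which closes squalene epoxide into lanosterol, and CYP51A1, the lanosterol demethylase, were not called higher with ATRA at 24 h. LSS read 1648, 1893 and 1862 in DMSO at 24 h, 1688, 2026 and 1763 with ATRA, 1601, 1749 and 1441 with VPA and 1249, 1129 and 1069 with both. The single agents overlapped DMSO, while the combination lay below all of them. Its change with both was -0.65 ± 0.09 (limma adjusted p = 2.9e-06), against 0.02 with ATRA and -0.17 with VPA, neither called. CYP51A1 changed by -0.50 with both at 24 h, by 0.16 with ATRA and by -0.23 with VPA, of which the first was called; at 72 h it was lower with ATRA (-0.44) and with both (-0.33), the latter not called without DMSO replicate 1 or replicate 2 of the combination. The interaction at 24 h was -0.49 for LSS and -0.43 for CYP51A1, and neither was called (limma adjusted p = 0.069 and 0.12). The second CYP51A1 probe set, nearly as bright, gave 0.41 with ATRA and -0.89 with VPA at 24 h. At 72 h that probe set gave -1.32 with ATRA and -1.06 with both. The other LSS probe sets, both dim, gave 0.35 and 0.07 with ATRA and -0.44 and -0.02 with VPA at 24 h. None of these other probe sets was tested alone.

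EBP, the sterol isomerase, rose by 0.52 in DMSO between 6 and 24 h and was lower with both at 72 h by 0.42, a call that was lost when any 1 of its 5 arrays was left out and after a second quantile normalization. The mean of its 3 probe sets turned the first of these to -0.57. TM7SF2 and SC5D, a sterol reductase and a sterol desaturase, were called in 0 of the 24 comparisons. Their group means ran from 34.5 to 54.4 and from 29.6 to 47.3, close to the lower quartile of the arrays.

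Among the genes that control SREBP, INSIG1 was called lower and INSIG2 higher with VPA at 6 h, and with both agents at 6, 24 and 72 h. INSIG1 read 471, 553 and 476 in DMSO at 6 h, 514, 496 and 463 with ATRA, 405, 379 and 346 with VPA, and 353, 355 and 359 with both. Every VPA array lay below every array without VPA. At 24 h it read 1052, 1085 and 1079 in DMSO, 1092, 1244 and 1095 with ATRA, 675, 628 and 686 with VPA, and 605, 518 and 477 with both. The VPA arrays were again all below the rest, at a time when DMSO had reached 2.15 times its level at 6 h. The changes with VPA were -0.41 ± 0.10 at 6 h (limma adjusted p = 0.0065) and -0.69 ± 0.10 at 24 h, and with both -0.49, -1.01 and -0.81 at 6, 24 and 72 h. At 72 h VPA alone gave -0.25, not called. The call at 6 h was lost without DMSO replicate 2. With ATRA at 24 h the brightest INSIG1 probe set gave 0.09, not called, while the 2 others gave 0.69 and 0.66; all 3 were lower when VPA was added, by 1.10, 1.26 and 0.87.

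INSIG2 read 173.5, 143.7 and 152.2 in DMSO at 6 h, 170.6, 140.1 and 159.2 with ATRA, 231, 206 and 265 with VPA, and 207, 239 and 241 with both. Both groups with VPA lay above both without it. At 72 h it read 138.2 and 120.5 in DMSO, 135.9, 115.7 and 113.0 with ATRA, 178.7, 176.5 and 188.5 with VPA, and 222, 208 and 191 with both, again without overlap. The rise with VPA was 0.57 ± 0.13 at 6 h (1.49-fold, limma adjusted p = 0.0028) and 0.49 ± 0.14 at 72 h. With both it was 0.55 at 6 h, 0.41 at 24 h and 0.68 at 72 h, and it was called at each time. At 24 h the DMSO arrays spread from 105.5 to 173.4 and the change with VPA, 0.30, was not called. The change with both at 24 h was not called without DMSO replicate 1, DMSO replicate 2 or replicate 2 of the combination, and that with VPA at 72 h was not called when any 1 of its 5 arrays was left out. INSIG2 has a single probe set.

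SREBF1, the gene of the SREBP form that leans towards fatty acid synthesis and a known target of LXR with RXR, was the control gene that followed ATRA. It read 164, 169 and 155 in DMSO at 6 h, 208, 203 and 196 with ATRA, 94.5, 103.8 and 141.8 with VPA, and 198.5, 173.2 and 178.7 with both. ATRA arrays were all above and VPA arrays all below DMSO. The VPA change of -0.54 ± 0.16 was called and the ATRA change of 0.31 was not, and ATRA added to VPA raised SREBF1 by 0.71 ± 0.16. The VPA call was lost without DMSO replicate 1 or 2 or VPA replicate 1 or 2. At 24 h it read 115.3, 170.1 and 191.7 in DMSO, 280, 334 and 259 with ATRA, 192.5, 178.2 and 151.4 with VPA and 350, 220 and 230 with both. Each ATRA group lay above every DMSO and VPA array, by 0.89 ± 0.16 for ATRA against DMSO (limma adjusted p = 0.00012) and 0.74 ± 0.16 for both against DMSO. Unlike most of the other genes, SREBF1 was not called lower when VPA was added to ATRA at 24 h (-0.15). At 72 h it was higher with both (0.49) and stood at 0.43, not called, with ATRA. The call at 72 h was lost without either DMSO array or without replicate 2 or 3 of the combination.

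SREBF2, the gene of the SREBP form that leans towards cholesterol synthesis, changed less. It read 299.8, 412.5 and 386 in DMSO at 24 h, 444, 420 and 488 with ATRA, and 318, 359 and 329 with both. It rose by 0.31 with ATRA, a call lost without DMSO replicate 1 or ATRA replicate 1 or 3, and fell by 0.42 when VPA was added, a call lost without ATRA replicate 3 or replicate 1 of the combination. SCAP was called higher with VPA at 24 h (0.60), but its DMSO arrays read 124, 268 and 268, and without the first of these, or without VPA replicate 1 or 2, the call was lost. MBTPS1 was called in 0 of the 24 comparisons.

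**Figure D4:**
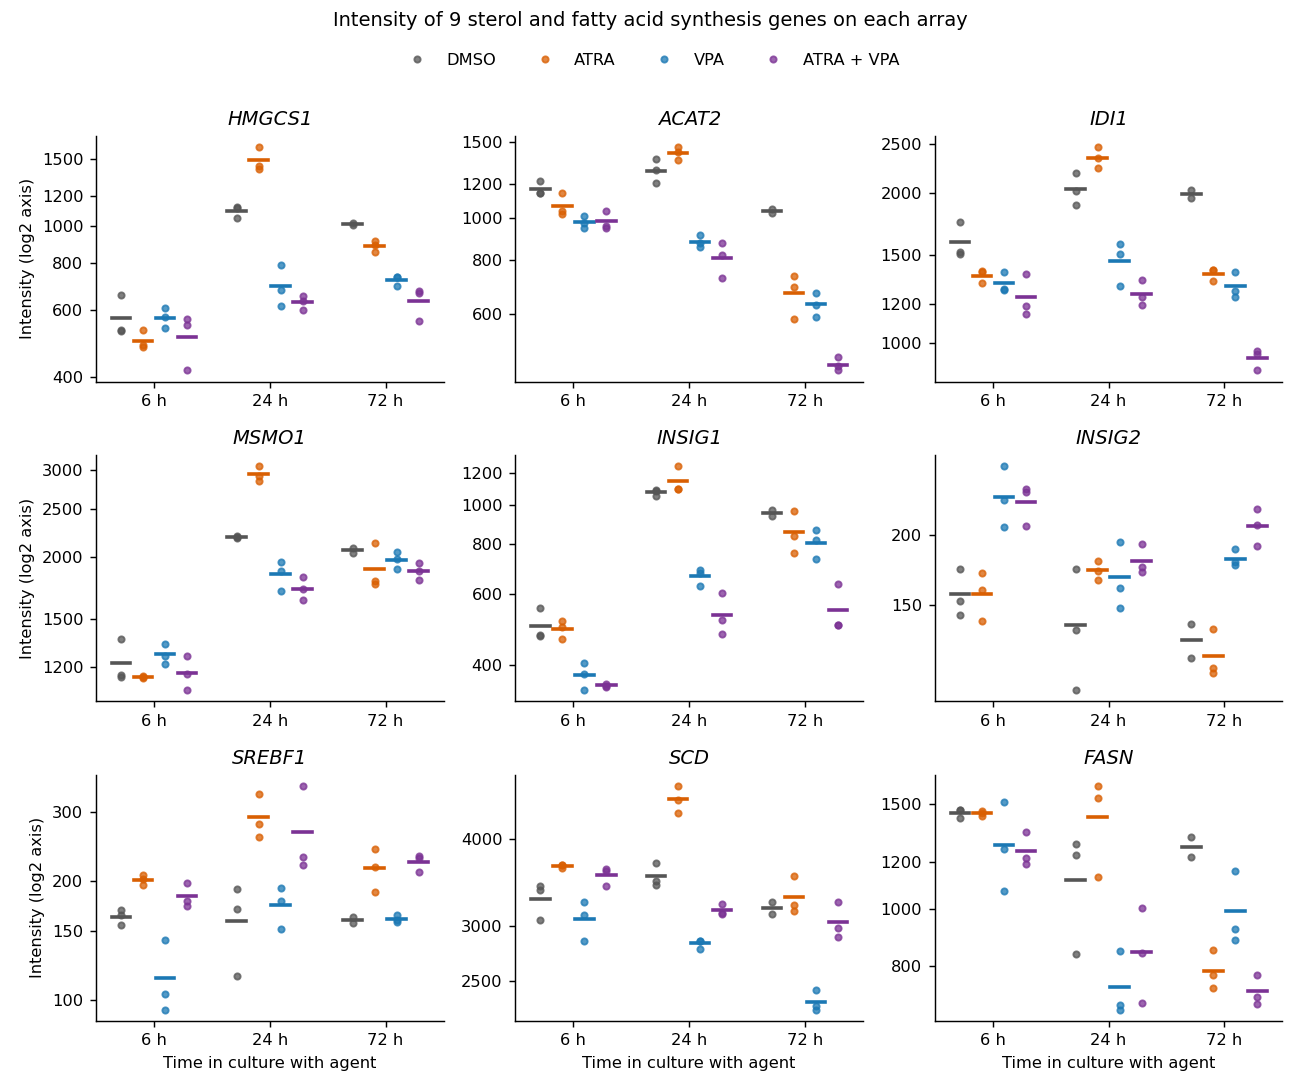
Intensity (y axis, log2 scale) of 9 of the genes on each of the 35 arrays at 6, 24 and 72 h (x axis); points are arrays, bars are group means, and colours are treatments. For HMGCS1, IDI1, MSMO1 and SCD the ATRA points at 24 h lie highest and the points with VPA lowest at that time; INSIG2 is higher with VPA at 6 h and 72 h, and SREBF1 is higher in both ATRA groups at 24 h.

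Of the fatty acid and lipid genes, SCD was the 1 gene called higher with ATRA at 24 h. It places the first double bond in saturated fatty acids. It read 3433, 3697 and 3483 in DMSO at 24 h, 4361, 4764 and 4548 with ATRA, 2781, 2859 and 2859 with VPA and 3120, 3136 and 3223 with both. The 4 groups did not overlap. ATRA raised SCD by 0.37 ± 0.07 (limma adjusted p = 0.00015), VPA lowered it by 0.32 ± 0.07, and VPA added to ATRA changed it by -0.53 ± 0.07. At 72 h VPA gave 2277, 2428 and 2304 against 3243 and 3120 in DMSO, a change of -0.45. In the brightest SCD probe set ATRA gave 0.05 and both gave -0.07 at 72 h, neither called. The dimmer SCD probe sets gave -0.24 and -0.97 with ATRA at 72 h, and -0.26 and -0.80 with both. These dimmer probe sets were not tested alone. SCD was higher with both than with VPA alone at 72 h by 0.38.

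FASN, which builds palmitate, read 841, 1231 and 1285 in DMSO at 24 h, 1540, 1131 and 1611 with ATRA, 850, 688 and 676 with VPA and 694, 842 and 1005 with both. DMSO and ATRA overlapped, and the rise of 0.36 was not called. VPA lowered FASN by 0.58, with 1 DMSO array, replicate 1, inside the VPA range, and by 0.78 without that array; the call was lost without DMSO replicate 3. At 72 h FASN read 1221 and 1321 in DMSO, 734, 773 and 851 with ATRA, 887, 926 and 1158 with VPA and 692, 710 and 774 with both. All treated arrays lay below DMSO, with called changes of -0.69 with ATRA and -0.81 with both and a change of -0.37 with VPA that was not called.

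ACLY, which supplies cytosolic acetyl-CoA from citrate, was lower at 72 h with ATRA (-0.42) and with both (-0.44). LPIN1, a phosphatidate phosphatase of glycerolipid synthesis, was lower with both at 24 h (-0.57) and with ATRA (-0.58) and both (-0.72) at 72 h. Of the desaturases that act on polyunsaturated chains, FADS2 was lower with VPA at 24 h (-0.45) and fell by 0.66 when VPA was added to ATRA, while FADS1 was lower with both at 24 h (-0.35) and 72 h (-0.34). The FADS2 call with VPA was lost without DMSO replicate 2 or 3 or VPA replicate 3. The FADS1 call at 24 h was lost without DMSO replicate 2 or 3 or replicate 1 of the combination, and that at 72 h without either DMSO array or replicate 1 or 2 of the combination. ACACA, which makes malonyl-CoA, and the elongase ELOVL6 were called in none of the 15 comparisons between treatments at a given time; in DMSO they rose by 0.32 and 0.64 between 6 and 24 h.

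The mean 3' to 5' ratio at 72 h was 1.06 in DMSO, 1.82 with ATRA, 1.09 with VPA and 1.36 with both. With that ratio as a covariate, 8 genes were lower with ATRA (16.3% of all genes), 5 with VPA (2.58%) and 15 with both (16.9%), in place of 9, 5 and 14. The ATRA calls of PMVK, NSDHL and FASN were lost in that fit. The probe sets of a gene differed in these falls. Of the 20 genes with several probe sets, 12 had all of them lower with ATRA at 72 h and 8 had both signs; SQLE read -0.43 in the brightest and 0.20 and -1.21 in the others. For the combination at 72 h, 16 of 20 had every probe set lower, 1 had every probe set higher and 3 had both signs.

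The ATRA effect itself changed with time. The ATRA change at 72 h was lower than that at 24 h for 16 of 31 genes (51.6%, against 15.2% of all genes) and higher for 0 (3.91% of all genes); this comparison was added after seeing the data. DHCR7 (-1.51), NSDHL (-1.40), MVD (-1.13) and FASN (-1.05) differed most. Without DMSO at 24 h replicate 1, 11 genes were called (background 8.61%), and after a second quantile normalization 7. Against the change at 6 h, the change at 72 h was lower for 4 genes with ATRA (12.9%, against 11.8%; 5.58% of all genes were higher), 1 gene with VPA (3.2%, against 0.766%; 1.25% higher) and 6 with both (19.4%, against 9.14%; 7.92% higher). ACAT2 was called in each of these 3, at -0.51, -0.46 and -0.93. The 4 calls with ATRA became 1 without DMSO at 6 h replicate 3, either DMSO array at 72 h or ATRA at 72 h replicate 1, and 2 without any ATRA array at 6 h or without ATRA at 72 h replicate 2. The ACAT2 call with VPA was lost in 8 of 11 fits that left out 1 array: without DMSO at 6 h replicate 2 or 3, VPA at 6 h replicate 1 or 3, either DMSO array at 72 h, or VPA at 72 h replicate 1 or 3.

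Genes next to these pathways were looked at from lists that were set by function, in the comparison in which 4.88% of all genes were higher and 4.62% lower. VPA added to ATRA at 24 h lowered 1 of 12 genes of sterol uptake, storage and movement and raised 1, lowered 1 of 6 other cholesterol enzymes, lowered 1 and raised 1 of 16 other fatty acid enzymes, lowered 1 of 9 genes of LXR and sterol export, raised 1 of 8 genes of the isoprenoid branches, and changed 0 of 8 genes of SREBP processing and degradation and 0 of 9 glycerolipid enzymes. The medians of these lists ran from -0.16 to 0.01, against -0.50 for the 31 genes. No test compared the lists, which, like the 31 genes, were chosen with earlier results of these data known.

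Some neighbours moved with VPA or late with ATRA. NPC2, which carries cholesterol out of lysosomes, read 245, 289 and 328 in DMSO at 24 h and 622, 624 and 507 with VPA, a rise of 1.03 ± 0.11 (limma adjusted p = 1.2e-07), or 0.92 without DMSO replicate 1. With both at 72 h NPC2 stood 1.27 above DMSO. TMEM97, a sterol-responsive membrane protein, read 3597 and 3941 in DMSO at 72 h and 1920, 1810 and 1843 with ATRA, a fall of 1.02, and fell by 1.15 with both. LBR, a nuclear envelope protein with sterol reductase activity, fell by 0.83 with ATRA and by 1.10 with both at 72 h. SCARB1, a lipoprotein receptor, fell by 0.95 and 0.80, and SLC25A1, the mitochondrial citrate carrier, by 1.00 and 0.66.

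Of the LXR and export genes, APOE rose at 72 h with ATRA (0.39), VPA (0.49) and both (1.00), and ABCG1, a sterol exporter, with ATRA (0.81) and both (1.06), although ABCG1 read only 14.3 to 37.0 on these arrays. LPCAT3, a phospholipid remodelling enzyme, was lower with both at 72 h (-0.88). ELOVL4, an elongase of very long chains, was higher with VPA at 6 h (0.79) and 24 h (0.69, or 0.60 without DMSO replicate 1). ACACB, the mitochondrial acetyl-CoA carboxylase, was higher with VPA at 24 h (0.69, or 0.54 without DMSO replicate 1). AGPAT1, an acyltransferase, was called higher with ATRA at 24 h (0.63), with overlapping arrays, and was not called without DMSO replicate 1 (0.38). SEC24D, a coat protein of the vesicles that leave the endoplasmic reticulum, was higher with VPA at 6 h (0.54), and ERLIN1, which takes part in sterol-regulated degradation, was lower with ATRA at 72 h (-0.62). PDSS1, ICMT and FNTB of the isoprenoid branches were lower, PDSS1 by 0.69 and ICMT by 0.74 with ATRA at 72 h and FNTB by 0.81 with VPA at 24 h (0.93 without DMSO replicate 1).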

How the data were processed

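Total RNA of BE(2)-C cells was labelled as biotinylated cRNA from oligo-dT primed cDNA and hybridised to Affymetrix high-throughput arrays, per the labels' protocols. The deposited values are an intensity for each probe set on a linear scale. The authors used RMA, as the submitters' processing notes name it; its version is not given in the sources used here. RMA uses no detection calls, so low values are not shown to be above background. Values were taken as log2(intensity + 1). Of 22930 probe sets, 19230 carried 1 gene symbol and entered; 125 with several symbols, 3292 with none and 283 control probe sets were left out. The brightest probe set stood for each of 11882 genes.

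One model over the 12 groups was fitted by limma 3.58.1 (R 4.3.3), with 23 residual and 5.48 prior degrees of freedom. Within each contrast, Benjamini-Hochberg adjustment ran over all genes, with a threshold of 0.05. Data were simulated for ATRA against DMSO at 24 h (11882 genes, 50 planted per size). In them 60% of changes of 0.5 and -0.5, 100% of 1 and 98% of -1 were called, with 13 false calls. The simulated noise of a gene had the same spread in every group, and no array stood apart. These rates therefore do not cover the effect of DMSO at 24 h replicate 1.

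The 31 genes, the neighbouring lists and the markers were chosen with earlier results of these data known. Any of the 31 genes may be named in any comparison. Of each neighbouring list, the 3 with the largest absolute change among those past 0.05 against DMSO are candidates for naming. Alternatives were a replicate block, a fit of the compared arrays alone, removal of the dimmest 33.3% of genes, the mean of all probe sets, a pseudocount of 32, a second quantile normalization, the 3' to 5' ratio as a covariate and leaving out each array. Leaving out DMSO at 24 h replicate 1 throughout and the comparison of the ATRA effect at 72 h with that at 24 h were chosen after seeing the data. Promoter windows are from RefSeq (GRCh38.p14).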

Additional observations from a re-analysis of the deposited data

Results flagged for a closer look

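For these genes the effect of a treatment differed between times, or with the other agent, by a test of the difference itself in limma (adjusted p under 0.05 over all genes). The ATRA effect at 72 h minus that at 24 h was -0.63 for HMGCS1, -1.13 for MVD, -0.74 for IDI1, -0.42 for FDPS and -0.77 for ACAT2 in the mevalonate steps. It was -0.84 for SQLE, -0.60 for CYP51A1, -0.55 for MSMO1, -1.40 for NSDHL, -0.53 for HSD17B7 and -1.51 for DHCR7 from squalene to cholesterol. It was -0.31 for SCD, -1.05 for FASN, -0.41 for ACLY, -0.68 for FADS2 and -0.71 for LPIN1 among the fatty acid and lipid genes. Of these 16, FDPS, HSD17B7, SCD, ACLY and FADS2 were not called without DMSO at 24 h replicate 1.

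The ATRA effect at 72 h minus that at 6 h was -0.79 for NSDHL, -0.51 for ACAT2, -0.69 for FASN and -0.39 for ACLY. The VPA effect at 72 h minus that at 6 h was -0.46 for ACAT2. The effect of both agents at 72 h minus that at 6 h was -0.50 for HMGCS1, -0.72 for IDI1, -0.42 for SQLE, -0.63 for HSD17B7, -0.93 for ACAT2 and -0.47 for ACLY. The interaction of ATRA and VPA at 24 h was -0.52 for MSMO1.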

How the results depend on the processing

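The 31 genes had 169 called changes over 24 comparisons, and 67 of them kept their call under every alternative run; of 2299 gene and setting combinations, 1882 kept their direction and call, 410 lost the call and 7 turned. All 7 turned with the mean of all probe sets: in ATRA with VPA against VPA at 24 h CYP51A1 gave 0.17, in ATRA with VPA against ATRA at 72 h EBP gave 0.21, in DMSO at 24 h against 6 h CYP51A1 gave -0.073, EBP -0.57 and LPIN1 -0.24, and in DMSO at 72 h against 6 h LSS gave -0.11 and LPIN1 -0.093. Dim probe sets and 2 DMSO arrays at 72 h limit what could be seen, since no detection calls came with the values.

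Counts of genes called that moved by over 1.5 times were as follows, with the count among all genes of the same fit in parentheses. A fit of only the arrays compared called 3 genes for ATRA (717), 4 for VPA (252) and 7 for both (789) at 24 h. It called 0 for both against VPA at 6 h (53) and 1 at 24 h (834). The interactions gave 0 at 24 h (18) and 1 at 72 h (194), and DMSO at 24 h against 6 h gave 4 (118). The VPA effect at 72 h against 6 h gave 2 (377), and the ATRA effect at 72 h against 24 h gave 6 (275). With the 3' to 5' ratio as a covariate the count was 2 for both against VPA at 24 h (1003). It was 5 for DMSO at 24 h (186), 3 for DMSO at 72 h (439) and 2 for the ATRA effect at 72 h against 6 h (1399). A second quantile normalization gave 3 for VPA at 6 h (1505) and 12 for both against ATRA at 72 h (2441). At 72 h against 6 h it gave 1 for the ATRA effect (1823) and 2 for the VPA effect (316). For the ATRA effect at 72 h against 24 h it gave 7 (1353). The mean of all probe sets gave 2 for both against VPA at 24 h (1358) and 2 for the 24 h interaction (83). Leaving out the dimmest genes gave 3 for that interaction (107) and 2 for the VPA effect (269). A pseudocount of 32 gave 4 for that interaction (121), 1 for that at 72 h (350) and 2 for the VPA effect (305). The causes were not tested. The second quantile normalization moved the median of all genes by less than 0.1 log2.

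With the replicate number as a block, 163 of the 169 changes kept their call and the VPA effect at 72 h against 6 h was called for 0 genes in place of 1. Same-numbered arrays correlated between -0.23 and 0.19 over 24 pairs, of which 5 were over 0.1. All pairs were over 0.1 in 0 of 9 comparisons. With so few arrays in a group, these correlations cannot decide whether same-numbered samples shared a culture or a day. The main fit did not treat them as pairs.

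When each array of a comparison was left out in turn, the counts of genes called against DMSO ranged at 6, 24 and 72 h from 0 to 0, 8 to 17 and 7 to 11 with ATRA, 1 to 4, 8 to 11 and 3 to 5 with VPA, and 3 to 4, 11 to 14 and 10 to 14 with both. For both against ATRA they ranged from 2 to 2, 14 to 18 and 5 to 7, for both against VPA from 0 to 1, 2 to 5 and 6 to 10, and for the interaction from 0 to 0, 0 to 5 and 0 to 1. They ranged from 9 to 13 for DMSO at 24 h and 3 to 7 at 72 h against 6 h. The effects at 72 h against 6 h gave 1 to 3 with ATRA, 0 to 1 with VPA and 4 to 8 with both. The ATRA effect at 72 h against 24 h gave 11 to 20. Calls among all genes were not set beside the ranges in this paragraph.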
